A study of Homo sapiens with 4 samples.

Results

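The 37 genes of the human mitochondrial genome were examined in SK-N-SH cells, an established human neuroblastoma line. They were chosen as the rows of the transcript table whose symbol starts with MT-, which gave 37 of the 57820 genes, each with 1 transcript. These are 13 protein-coding genes, 2 rRNA genes and 22 tRNA genes. RNA-seq was performed on 2 libraries of cells transduced with an empty lentivirus (vector control, or control) and on 2 libraries of cells transduced with a lentivirus carrying the lncRNA *RP5-998N21.4* under an EF1a promoter (*RP5-998N21.4* OE). Both groups thus carry a lentiviral vector, and the controls are titled WT although their treatment label names the empty vector. Nothing in the sources states that the 2 libraries of a group came from separate transductions, so p-values measure only the spread between these libraries, which may be technical. The comparison asks which RNAs of the mitochondrial genome differed when *RP5-998N21.4* was overexpressed.

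Human mitochondrial DNA is a small circle that is transcribed almost completely from both strands into long precursors. Most genes are transcribed from the heavy strand, including both rRNAs and all protein genes but *MT-ND6*, and the others from the light strand. Nucleases cut the precursors at the tRNAs that lie between the larger genes, and the mRNAs then receive poly(A) tails and are held stable by the LRPPRC-SLIRP complex. All 13 proteins are subunits of respiratory chain complexes I, III and IV or of the ATP synthase (complex V), and the rRNAs and tRNAs serve the mitochondrial ribosome that makes them. In the lifted GENCODE annotation for GRCh37, 28 of the members lie on the heavy-strand transcript and 9 on the light-strand transcript.

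A light-strand cluster of 4 tRNA genes was level or higher in the OE libraries, while 14 of the 22 tRNA genes were lower in both OE libraries than in either control (27.6% of all tested genes were), and the sequences of the cluster and of 4 of the lower genes are shown for that reason. The others, *MT-TF*, *MT-TL1* and *MT-TQ*, overlapped between groups, and *MT-TS1* had too few counts to be tested. *MT-TA* (chrM:5587-5655), *MT-TN* (chrM:5657-5729), *MT-TC* (chrM:5761-5826) and *MT-TY* (chrM:5826-5891) lie side by side on the minus strand between *MT-TW* and *MT-CO1*. Their sequences read as follows, 5′ to 3′ along the tRNA, with the anticodon in capitals.
MT-TA: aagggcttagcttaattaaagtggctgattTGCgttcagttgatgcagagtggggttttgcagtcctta
MT-TN: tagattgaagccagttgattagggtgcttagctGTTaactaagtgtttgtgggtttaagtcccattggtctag
MT-TC: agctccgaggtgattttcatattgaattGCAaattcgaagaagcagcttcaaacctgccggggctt
MT-TY: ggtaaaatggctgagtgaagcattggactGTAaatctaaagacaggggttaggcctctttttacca
*MT-TG* (chrM:9991-10058), *MT-TR* (chrM:10405-10469), *MT-TH* (chrM:12138-12206) and *MT-TL2* (chrM:12266-12336) lie on the plus strand, and their anticodons are marked in the same way.
MT-TG: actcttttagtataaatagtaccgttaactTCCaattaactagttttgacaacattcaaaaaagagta
MT-TR: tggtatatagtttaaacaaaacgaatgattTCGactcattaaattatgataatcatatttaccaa
MT-TH: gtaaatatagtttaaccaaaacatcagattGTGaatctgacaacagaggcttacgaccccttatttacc
MT-TL2: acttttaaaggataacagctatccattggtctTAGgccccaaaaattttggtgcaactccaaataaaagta
These sequences come from the GENCODE transcripts for GRCh37 and were matched by transcript ID. The anticodon was located as the middle of a 7-base loop closed by a stem with at least 4 of 5 bases paired (4 in *MT-TL2*), whose codon, read in the vertebrate mitochondrial code, gives the amino acid of the gene's name, which succeeded for 20 of the 22 tRNA genes. *MT-TN* had 2 such places, and the one with more pairs, or else nearer the usual position of the anticodon stem, was taken. The 4 genes of the light-strand cluster carry tRNAs for alanine, asparagine, cysteine and tyrosine, and the other 4 carry those for glycine, arginine, histidine and leucine. G and C made up 43.5%, 41.1%, 45.5% and 42.4% of the bases of *MT-TA*, *MT-TN*, *MT-TC* and *MT-TY*, against 26.5%, 23.1%, 36.2% and 35.2% of *MT-TG*, *MT-TR*, *MT-TH* and *MT-TL2*. Other tRNA genes that were lower in OE had as much G and C as the cluster, with 45.8% in *MT-TS2* and 45.6% in *MT-TM*. The 22 tRNA genes are 59 to 75 bases long, shorter than the study's reads, so a full-length read on a tRNA gene also covers a neighbouring gene or spacer. The use of strand in counting is not given in the sources used here, and where strand was not used, the reads of a light-strand gene and of the heavy-strand precursor opposite it cannot be told apart.

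Library totals lay between 23785164 and 28307591 counts. The overexpressed *RP5-998N21.4* had 32 and 33 counts in the controls and 2407 and 2808 in OE, which matches the labels. Of 9 adrenergic neuroblastoma markers, 8 were detected and TH, the rate-limiting enzyme of catecholamine synthesis, had 0 counts in all 4 libraries. The summed level of the 9 markers was 470 and 538 CPM (counts per 1000000 counts of the TMM-normalized library size) in the controls and 838 and 811 CPM in the OE libraries, with the 8 detected markers higher in both OE libraries, as were 27.8% of all tested genes. The part of this shift in the mitochondrial results was not tested. Of 9 markers of other cells, 8 were in the table and *ALB* and *CDH5* had 0 counts. Their summed level, mostly *COL1A1*, was 970 and 1108 CPM in the controls and 946 and 390 CPM in the OE libraries. Without *COL1A1*, it was 73.0 and 69.4 CPM against 63.1 and 64.2 CPM. Of the 8, 4 were lower in both OE libraries than in either control, where 27.6% of all tested genes were.

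Mitochondrial RNA took a smaller share of the OE libraries, and the difference lay in the mRNAs. The 37 genes held 6.41% and 6.50% of all counts in the controls and 6.01% and 6.08% in OE, a difference of -0.409 percentage points. The 13 protein-coding genes held 5.44% and 5.50% in the controls and 4.94% and 5.00% in OE. The 2 rRNA genes differed the other way, with 0.919% and 0.945% against 1.02% and 1.02%. The 22 tRNA genes together held 0.0574% and 0.0588% against 0.0595% and 0.0549%, with overlapping groups. The widest 95% Wilson interval of the whole mitochondrial share spanned 0.0197 percentage points and covers counting error only. An exact permutation test (two-sided) gave p = 0.333 for the shares of all members, of mRNAs and of rRNAs, the smallest p that 2 against 2 libraries allow. Since RNA of a whole culture was sequenced, less of an RNA per cell and fewer cells that hold it cannot be told apart.

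**Figure D1:**
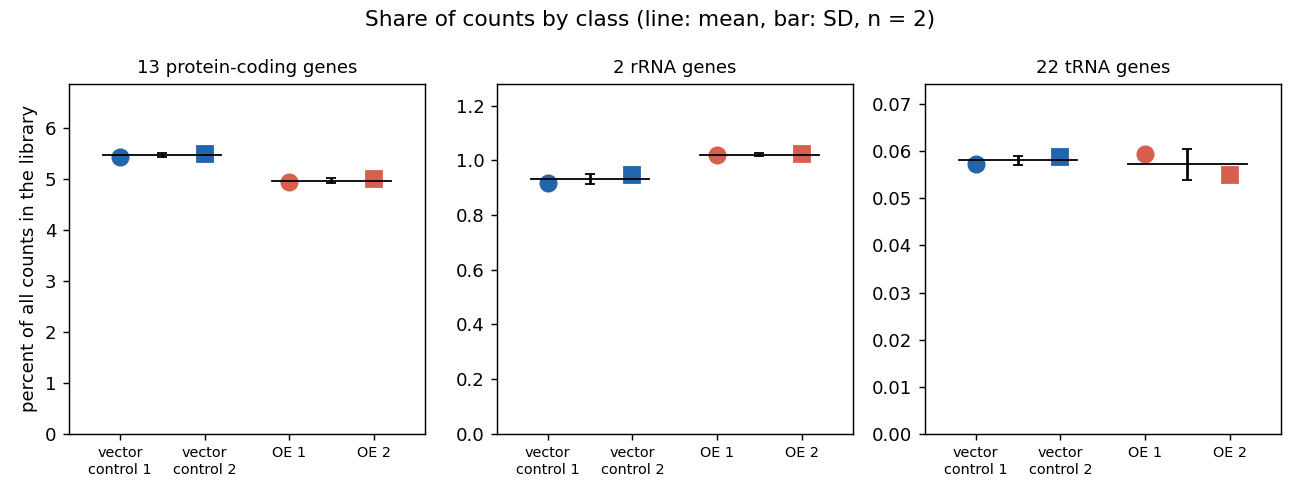
Percent of each library's counts in the 13 protein-coding, 2 rRNA and 22 tRNA genes of the mitochondrial genome, with the group mean as a line and the SD (n = 2) as a bar; each panel has its own axis, from 0. The OE libraries sit below the vector control for the protein-coding genes and above it for the rRNA genes, and the groups overlap for the tRNA genes.

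Gene by gene, OE was compared with the vector control by the quasi-likelihood test of edgeR, with p adjusted by Benjamini-Hochberg over all 20528 genes that passed the filter on low counts. Of the 37 members, 36 passed the filter, and *MT-TS1*, a light-strand serine tRNA gene with 5, 5, 5 and 7 counts, did not. A gene was called, by the thresholds the study used with DESeq2, where its adjusted p was below 0.01 and its log2 fold change beyond 0.5 in either direction. This rule called 0 of the 36 members and 0 of all tested genes (0%). It also missed *RP5-998N21.4* itself, with a log2 fold change of 6.11 and an adjusted p of 0.0109 in edgeR. The absence of calls thus says little about the members. The smallest adjusted p among the members was 0.0584, for *MT-ND5*. At a raw (unadjusted) p below 0.05, 22 members were lower and 2 higher in OE, where 10.7% of all tested genes were lower and 10.1% higher. In 26 members both OE libraries lay below both vector control libraries and in 5 members above them, against 27.6% and 27.8% of all tested genes. The replicates of the members lay closer together. Their median log2 gap was 0.043 (control) and 0.093 (OE), against 0.18 and 0.17 over all tested genes. The median log2 fold change of the 36 members was -0.24, and that of all tested genes was 0.01. Without vector control replicate 2, the number of lower members was 14. The study's methods name DESeq2 without naming its test. The Wald test of DESeq2 called 7 members at the same thresholds, all tRNA genes and all lower. It called 8.77% of all tested genes, 4.35% higher and 4.42% lower. Without the fold threshold, 19 members had an adjusted p below 0.01 in DESeq2, against 13.8% of all tested genes.

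**Figure D2:**
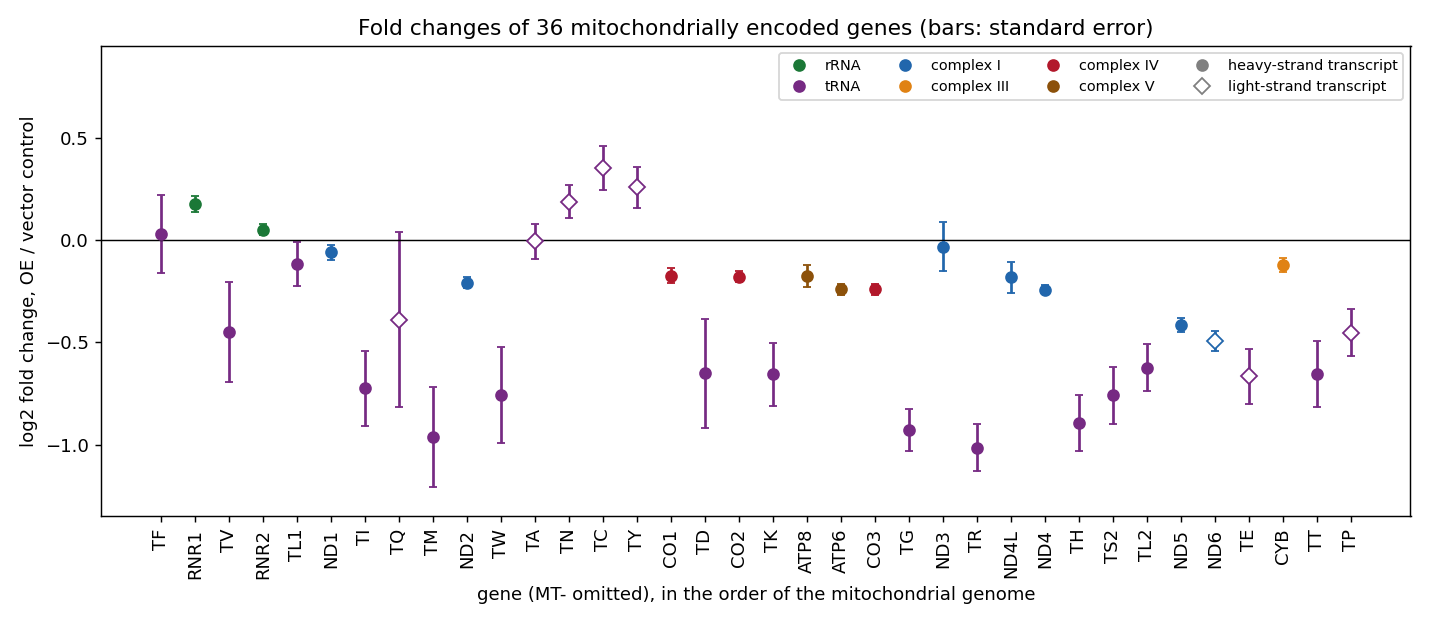
Log2 fold change (OE over vector control, edgeR) of the 36 tested members in the order of the mitochondrial genome, with the SE as a bar; filled circles are genes on the heavy-strand transcript and open diamonds genes on the light-strand transcript. The protein-coding genes lie between -0.49 and -0.03, both rRNA genes lie above 0, and the tRNA genes spread from -1.02 to 0.35.

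All 7 mitochondrial subunits of complex I, the NADH dehydrogenase, had a negative log2 fold change, though the groups overlapped for *MT-ND3*. The most negative values among the mRNAs were those of *MT-ND5* and *MT-ND6*, whose genes meet end to end on opposite strands. *MT-ND5* (chrM:12337-14148), the longest of the protein genes, had 84791 and 83197 counts in the controls and 66404 and 79310 in OE. Scaled to library size, this was 3591 ± 71.2 CPM (SD, n = 2) in the controls and 2694 ± 67.6 CPM (SD, n = 2) in OE, and the log2 fold change was -0.41 (standard error, SE, 0.0358, adjusted p = 0.0584, edgeR). The gap between the groups was larger than that between the replicates of either group. *MT-ND6* (chrM:14149-14673), the only protein gene of the light strand, had 16395 and 16359 counts in the controls and 12794 and 14025 in OE. Its level was 700.2 ± 5.57 CPM (SD, n = 2) against 497.4 ± 17.7 CPM (SD, n = 2), and the log2 fold change was -0.49 (SE 0.0506, adjusted p = 0.0649, edgeR). The counts of *MT-ND6* per count of *MT-ND5* were 0.193 and 0.197 in the controls and 0.193 and 0.177 in OE, so that the first library of each group was nearly level with the other.

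*MT-ND4*, which makes another membrane subunit of complex I, had 206224 and 211184 counts in the controls and 188361 and 219202 in OE. The last of these is the highest count but comes from the deepest library, and in CPM both OE libraries (7507 and 7578 CPM) lay below both vector control libraries (8856 and 8988 CPM). Its log2 fold change was -0.24 (SE 0.0224, adjusted p = 0.0615, edgeR). *MT-ND4L*, which shares 7 bases with *MT-ND4* on the same transcript, had 26925 and 27157 counts in the controls and 27214 and 27587 in OE, or 1156 and 1156 CPM against 1085 and 953.7 CPM in OE (log2 fold change -0.18, SE 0.0766, adjusted p = 0.297). Its log2 fold change was -0.28 without OE replicate 1 and -0.093 without OE replicate 2. The count of *MT-ND4L* was 0.131 and 0.129 per count of *MT-ND4* in the controls and 0.144 and 0.126 in OE, with overlapping groups. *MT-ND2* had 123850 and 126592 counts in the controls and 117293 and 132699 in OE, or 5319 and 5388 CPM against 4674 and 4588 CPM in OE (log2 fold change -0.21, SE 0.0263, adjusted p = 0.0768). *MT-ND1*, the first mRNA after the rRNAs, had the smallest difference among the protein-coding genes whose groups did not overlap, with 109075 and 115528 counts in the controls and 114485 and 134684 in OE, or 4684 and 4917 CPM against 4562 and 4656 CPM and a log2 fold change of -0.06 (SE 0.0365). Leaving out vector control replicate 1 gave -0.099, and leaving out replicate 2 gave -0.028. *MT-ND3* had 18466 and 19766 counts in the controls and 22124 and 20705 in OE, or 793 and 841 CPM against 882 and 716 CPM in OE, so that the vector control lay between the OE libraries and no direction can be given.

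The 3 core subunits of complex IV, the cytochrome c oxidase, were lower in OE by similar factors. *MT-CO1*, the catalytic subunit and the member with the most counts, had 266701 and 272534 counts in the controls and 248972 and 304034 in OE. In CPM it was at 11526 ± 103 (SD, n = 2) in the controls and 10216 ± 416 (SD, n = 2) in OE, 0.886 times the control level (log2 fold change -0.17, SE 0.0364, adjusted p = 0.128, edgeR). *MT-CO2*, which holds the copper site that takes electrons from cytochrome c, had 91131 and 92080 counts in the controls and 87024 and 99792 in OE, or 3914 and 3919 CPM against 3468 and 3450 CPM, a log2 fold change of -0.18 (SE 0.0256). *MT-CO3* had 111425 and 114321 counts in the controls and 101582 and 119125 in OE, or 4785 and 4865 CPM against 4048 and 4118 CPM, a log2 fold change of -0.24 (SE 0.0273). Both OE libraries lay below both controls for all 3 genes, as for 27.6% of all tested genes, and with the summed mitochondrial counts as library size their log2 fold changes were -0.016, -0.021 and -0.083. *MT-CYB*, the cytochrome b of complex III and the last protein gene on the heavy-strand transcript, had 103374 and 107269 counts in the controls and 102209 and 121841 in OE, or 4439 and 4565 CPM against 4073 and 4212 CPM in OE. Its log2 fold change was -0.12 (SE 0.0335, adjusted p = 0.183, edgeR), less negative than that of *MT-ND5* upstream of it.

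The 2 subunits of the ATP synthase are read from 1 mRNA with overlapping frames. *MT-ATP8* and *MT-ATP6* share 46 bases in the annotation, so the counting may have split or shared the reads of the overlap between them. *MT-ATP6*, part of the proton channel, had 115916 and 119197 counts in the controls and 107340 and 122225 in OE, or 4978 and 5073 CPM against 4278 and 4226 CPM in OE (log2 fold change -0.24, SE 0.0267, adjusted p = 0.069, edgeR). *MT-ATP8* had 18893 and 19034 counts in the controls and 18579 and 20109 in OE, or 811 and 810 CPM against 740 and 695 CPM (log2 fold change -0.18, SE 0.0517, adjusted p = 0.196). Over the 13 protein-coding genes, the groups did not overlap for 12 genes, all lower in OE, and 10 had a raw p below 0.05, against 27.6% and 10.7% of all tested genes. The median log2 fold change of the 13 was -0.18.

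**Figure D3:**
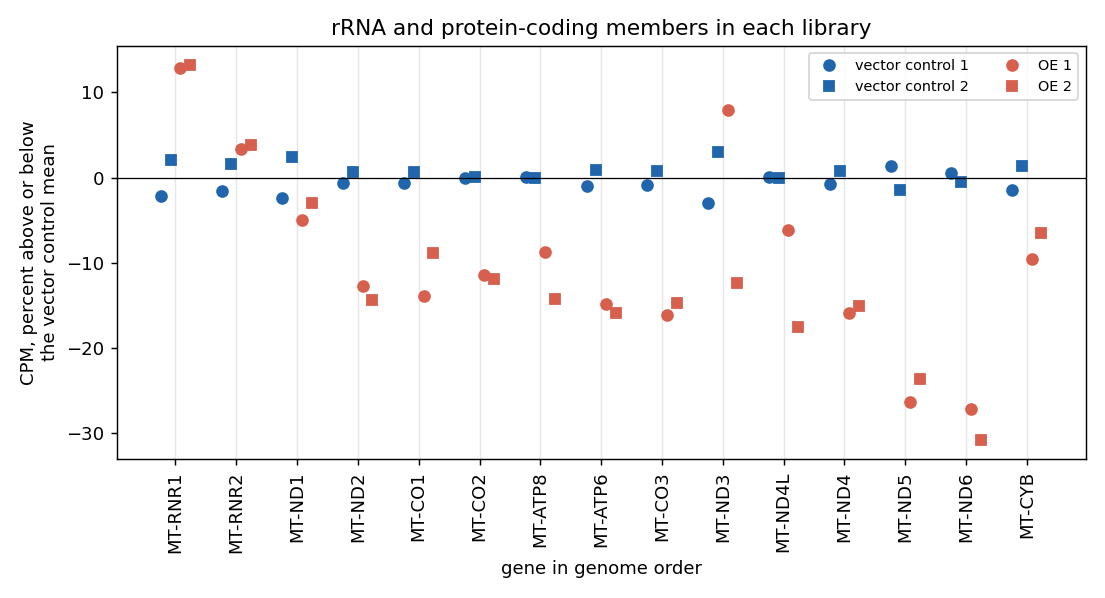
CPM of the 2 rRNA and 13 protein-coding genes in each library, as percent above or below the mean of the 2 vector control libraries, in genome order; blue points are vector control and red points OE libraries. The rRNA genes lie above 0 in OE, 12 of 13 protein-coding genes lie below both vector control libraries, and the OE libraries straddle the vector control for MT-ND3.

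Both rRNA genes had higher CPM in both OE libraries than in either control, as did 27.8% of all tested genes. *MT-RNR1*, the RNA of the small subunit of the mitochondrial ribosome, had 30758 and 32380 counts in the controls and 38229 and 44205 in OE. Its level was 1350 ± 40.4 CPM (SD, n = 2) against 1526 ± 3.35 CPM (SD, n = 2), and the log2 fold change was 0.18 (SE 0.0400, adjusted p = 0.141, edgeR). *MT-RNR2*, the RNA of the large subunit, had 187781 and 195464 counts in the controls and 212353 and 245921 in OE. Its level was 8192 ± 180 CPM (SD, n = 2) against 8482 ± 27.7 CPM (SD, n = 2), and the log2 fold change was 0.05 (SE 0.0262, adjusted p = 0.372). Without vector control replicate 1, the log2 fold change of *MT-RNR2* was 0.022. The count of *MT-RNR1* per count of *MT-RNR2* was 0.164 and 0.166 in the controls and 0.180 and 0.180 in OE. The rRNA genes held 0.169 and 0.172 counts per count of the mRNAs in the controls and 0.206 and 0.205 in OE. The rRNAs were therefore higher relative to the mRNAs in both OE libraries, by a factor of 1.21. With 2 libraries against 2, the exact permutation test (two-sided) of this ratio gave p = 0.333, the smallest it can give.

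Per length, the rRNA and protein-coding members spanned a 5.60-fold range in the vector control. *MT-CO1* was highest at 7475 ± 66.5 CPM per kb (SD, n = 2), followed by *MT-ATP6* at 7380 ± 98.4 CPM per kb, and these 2 levels differed by less than the sum of their SDs. *MT-ND6* was lowest at 1334 ± 10.6 CPM per kb, below *MT-RNR1* at 1415 ± 42.3 CPM per kb. Of the 14 pairs of neighbours in this order, 4 pairs differed by less than the sum of their SDs. In OE, *MT-CO1* remained first and *MT-ND6* last, *MT-RNR2* stood 4th instead of 6th, and *MT-RNR1* stood 13th, before *MT-ND5*. The labels name a TruSeq kit and total RNA, and whether poly(A) RNA was selected is not given in the sources used here.

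The tRNA genes showed the largest differences in both directions. Full-length reads are longer than these genes, so their counts need not measure mature tRNAs. Of the 14 tRNA genes on the heavy-strand transcript, 13 had a negative log2 fold change, 12 did not overlap between groups and were lower in OE, and 10 had a raw p below 0.05, against the same 27.6% and 10.7% of all tested genes. Their median log2 fold change was -0.69, against -0.18 for the protein-coding genes that lie between them. *MT-TR*, for arginine, lies between *MT-ND3* and *MT-ND4L* and had 547 and 582 counts in the controls and 310 and 333 in OE. This was 24.1 ± 0.904 CPM (SD, n = 2) against 11.9 ± 0.595 CPM (SD, n = 2), and the log2 fold change was -1.02 (SE 0.115, adjusted p = 0.0707, edgeR). *MT-TG*, for glycine, lies between *MT-CO3* and *MT-ND3* and had 694 and 747 counts against 404 and 469. Its log2 fold change was -0.93 (SE 0.104, adjusted p = 0.0693). Both genes flank *MT-ND3*, whose own groups overlapped. Per 1000 counts of *MT-CO3*, the neighbour before it, *MT-TG* had 6.23 and 6.53 counts in the controls and 3.98 and 3.94 in OE. Per 1000 counts of *MT-ND4L*, the neighbour after it, *MT-TR* had 20.9 ± 0.789 counts (SD, n = 2) against 11.7 ± 0.481 (SD, n = 2).

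*MT-TH*, *MT-TS2* and *MT-TL2*, for histidine, serine and leucine, follow each other without a gap between *MT-ND4* and *MT-ND5*. *MT-TH* had 834 and 805 counts in the controls and 517 and 494 in OE (log2 fold change -0.90, SE 0.139, adjusted p = 0.0933, edgeR). *MT-TS2* had 760 and 763 counts against 529 and 503, with a log2 fold change of -0.76 (SE 0.139). *MT-TL2* had 914 and 947 counts against 690 and 698, with a log2 fold change of -0.62 (SE 0.114). Each of the 3 genes was lower in both OE libraries than in either vector control library, as were 27.6% of all tested genes.

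Other heavy-strand tRNA genes had fewer counts. *MT-TK*, for lysine, had 162 and 175 counts in the controls and 120 and 126 in OE (log2 fold change -0.66, SE 0.155). *MT-TT*, for threonine, had 117 and 112 counts against 76 and 92 (log2 fold change -0.66, SE 0.163). *MT-TI*, for isoleucine, had 86 and 97 counts against 58 and 70, with a log2 fold change of -0.72 (SE 0.183). These 3 genes were lower in both OE libraries, as were 27.6% of all tested genes, at a log2 fold change close to that of *MT-TL2*. *MT-TM*, for methionine, had 53 and 53 counts against 26 and 37 (log2 fold change -0.96, SE 0.243), and *MT-TW*, for tryptophan, had 48 and 47 against 28 and 37 (log2 fold change -0.76, SE 0.234). *MT-TD*, for aspartate, had 57 and 64 counts against 48 and 40 (log2 fold change -0.65, SE 0.265, adjusted p = 0.285, edgeR). *MT-TV*, for valine, lies between the rRNA genes and had 68 and 91 counts against 57 and 78. The groups of *MT-TV* overlapped in counts and not in CPM, and its log2 fold change was -0.45 (SE 0.247), or -0.24 without vector control replicate 2. At these counts a difference of this size was not separable from the spread.

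*MT-TF* and *MT-TL1*, near the start of the heavy-strand transcript, had the smallest differences of the heavy-strand tRNA genes. *MT-TF*, for phenylalanine and the first gene after the promoter, had 59 and 62 counts in the controls and 63 and 80 in OE, a log2 fold change of 0.03 (SE 0.190). *MT-TL1*, for the other leucine codons, follows *MT-RNR2* and had 1060 and 1155 counts against 1038 and 1326 (log2 fold change -0.12, SE 0.108), with values from -0.20 to -0.046 when each library was left out. Both genes overlapped between groups in CPM. Across the 14 heavy-strand tRNA genes, gene order and log2 fold change had a Spearman rho of -0.41, and across the 14 rRNA and protein-coding genes of that strand the rho was -0.56. Across the 12 protein-coding genes alone it was -0.31. These genes share precursors and libraries, so the values are descriptions.

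On the light strand, 3 of the 4 genes of the cluster before *MT-CO1* were higher in both OE libraries and *MT-TA* overlapped, where 27.8% of all tested genes were higher without overlap. Of the cluster, *MT-TC* alone had a raw p below 0.05 in edgeR, where 10.1% of all tested genes were higher at that p. *MT-TC*, for cysteine, had 2539 and 2643 counts in the controls and 3817 and 3778 in OE, the most counts of any tRNA gene. This was 110.8 ± 2.44 CPM (SD, n = 2) against 141.4 ± 15.2 CPM (SD, n = 2), and the log2 fold change was 0.35 (SE 0.107, adjusted p = 0.202, edgeR). Its OE replicates differed by more than its vector control replicates, with 152 and 131 CPM, both above the control. *MT-TY*, for tyrosine, had 1904 and 1953 counts against 2625 and 2676 (log2 fold change 0.26, SE 0.0993, and 0.17 without OE replicate 1). *MT-TN*, for asparagine, had 2153 and 2208 counts against 2762 and 2962 (log2 fold change 0.19, SE 0.0826). *MT-TA*, for alanine, at the end of the cluster, had 858 and 875 counts against 924 and 1068, which in CPM was 36.8 and 37.2 against 36.8 and 36.9, a log2 fold change of -0.01 (SE 0.0867). *MT-TN* and *MT-TC* are separated by 31 bases that hold the origin of light-strand replication.

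Outside the cluster, *MT-TE* and *MT-TP* were lower in OE. *MT-TE*, for glutamate, lies next to *MT-ND6* and had 275 and 293 counts in the controls and 184 and 230 in OE (log2 fold change -0.67, SE 0.134, adjusted p = 0.121, edgeR). *MT-TP*, for proline, the first gene read from the light-strand promoter, had 435 and 466 counts against 342 and 420 (log2 fold change -0.45, SE 0.116). In CPM both OE libraries lay below both controls for each gene, as for *MT-ND6*, which follows *MT-TE* on the light-strand transcript. *MT-TQ*, for glutamine, had 13 and 21 counts against 13 and 17, with overlapping groups and a log2 fold change of -0.39 (SE 0.429). With each library left out it ran from -0.69 to -0.018, so no difference can be shown.

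Within each library, the ratio of tRNA genes to each other does not depend on the library scaling. The cluster of *MT-TA*, *MT-TN*, *MT-TC* and *MT-TY* had 1.37 and 1.35 counts per count of the 14 heavy-strand tRNA genes in the controls and 2.55 and 2.39 in OE, a ratio 1.82 times as high. *MT-TC* had 4.64 and 4.54 counts per count of *MT-TR* in the controls and 12.3 and 11.3 in OE. These were the tested members with the highest and the lowest log2 fold change, at 0.35 and -1.02. The replicates of each group lay close together and the groups stood apart, while the exact permutation test (two-sided) could give no p below 0.333. The genes of both ratios were chosen for how they differed in these data, so this separation adds no support. Across the 21 tested tRNA genes, G and C content and log2 fold change had a Spearman rho of 0.43, and across the 15 rRNA and protein-coding genes the rho was 0.10. Within the 14 heavy-strand tRNA genes, without the cluster, it was 0.24. The part of base composition in these differences was not tested.

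**Figure D4:**
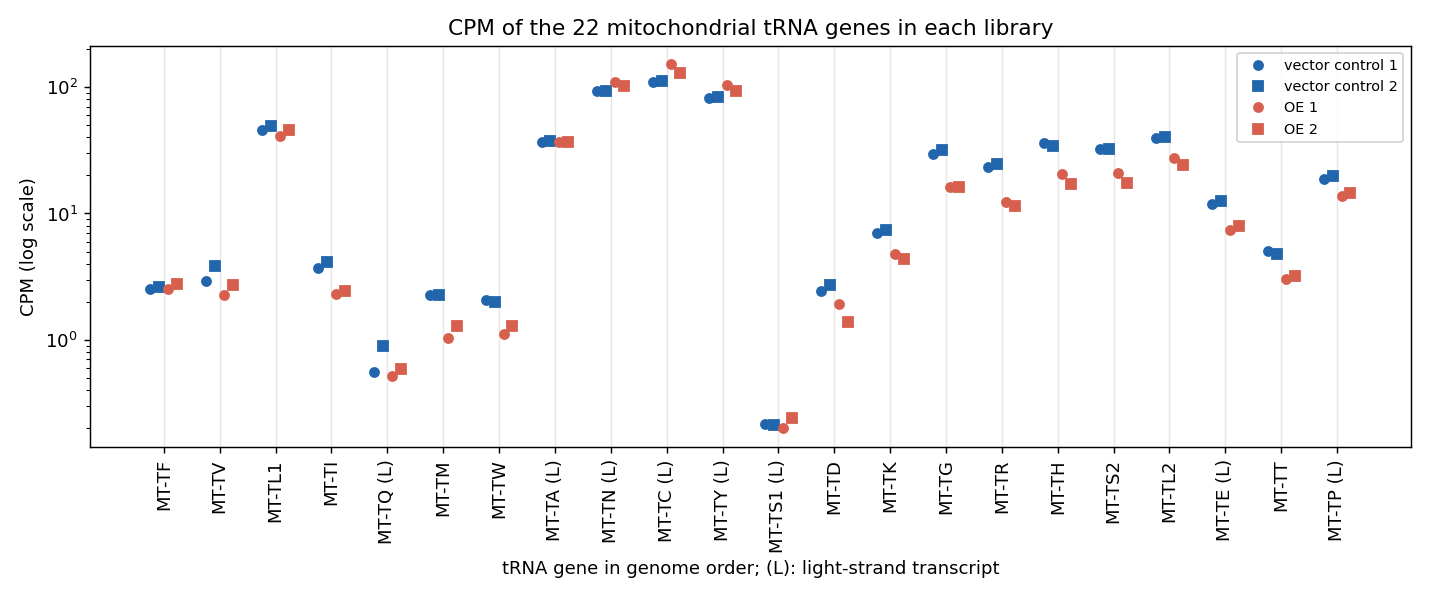
CPM of the 22 mitochondrial tRNA genes in each library, on a log scale and in genome order; (L) marks genes on the light-strand transcript, blue points are vector control and red points OE libraries. OE lies above the vector control for MT-TN, MT-TC and MT-TY and below it from MT-TK to MT-TP.

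Differences relative to the other members were measured with the summed mitochondrial counts as library size. This scaling moved the median log2 fold change of all tested genes by 0.157, and on it 11 members were positive and 25 negative, against 6 and 30 before. Of all tested genes, 13474 were positive and 7054 negative on it, against 10409 and 10119 before. At a raw p below 0.05, 6 members were higher and 15 lower, where 23.7% of all tested genes passed, 17.9% higher and 5.8% lower. *MT-ND5* and *MT-ND6* were still lower, at -0.26 and -0.34, as were *MT-TR* at -0.86 and *MT-TG* at -0.77. *MT-RNR1* was at 0.34 and *MT-RNR2* at 0.21, with adjusted p of 0.0618 and 0.058 in edgeR. The median of the protein-coding genes was -0.02, and these genes hold most of the summed counts. Sign changed on this scale for *MT-ND1*, *MT-ND3*, *MT-CYB*, *MT-TL1* and *MT-TA*.

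Nuclear copies of mitochondrial sequence can take reads from the members. In the table, 188 nuclear genes carry the name of a mitochondrial gene and a pseudogene or copy number, and 41 of them had a count. Together they had 290 and 269 counts in the controls and 350 and 381 in OE, from 0.0172% to 0.0237% of the members' counts. The highest was *MTND4P12*, with 86, 102, 125 and 94 counts, followed by MTND2P28 with 26, 20, 52 and 62 and MTRNR2L4 with 25, 23, 52 and 37 (controls first). When their counts were added to the members, the numbers of members lower and higher at a raw p below 0.05 were 22 and 2. Short or non-polyadenylated nuclear RNAs (*RN7SK*, *RN7SL1*, *RN7SL2*, *RMRP*, *RPPH1* and the RNU and SNORD genes) summed to 204 and 253 CPM in the controls and 248 and 194 CPM in OE, with overlapping groups.

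The nuclear genes that transcribe, process, modify, stabilise and degrade mitochondrial RNA or copy the mitochondrial genome were examined as a list of 68 genes, all of which were tested. Of these, 0 were called in edgeR, like 0% of all tested genes. OE was higher for 3 genes and lower for 5 at a raw p below 0.05, where 20.8% of all tested genes passed. The median log2 fold change of the list was -0.05. By the study's rule, DESeq2 called *PNPT1* higher and *PDE12* and *MTERF2* lower, 3 of 68 genes, where it called 8.77% of all tested genes.

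The 2 genes of the list with the smallest p are RNA-degrading enzymes. *PDE12*, which removes poly(A) tails from mitochondrial RNA, had 1678 and 1477 counts in the controls and 479 and 585 in OE. Its level was 67.5 ± 6.51 CPM (SD, n = 2) against 19.7 ± 0.803 CPM (SD, n = 2), and the log2 fold change was -1.78 (SE 0.119, adjusted p = 0.0415, edgeR), and all of its counts were on 1 of its 2 listed transcripts. *PNPT1*, the mitochondrial polynucleotide phosphorylase and a gene known to be induced by interferon, had 433 and 432 counts against 711 and 963 (log2 fold change 0.74, SE 0.129, adjusted p = 0.105). Among the transcription factors, *MTERF2* had 358 and 421 counts against 269 and 290 (log2 fold change -0.68, SE 0.144). *MTERF4*, a factor needed for ribosome assembly, had 1233 and 442 counts against 166 and 277, and its log2 fold change of -2.15 (SE 0.602) became -1.22 without vector control replicate 1. All 1233 counts of vector control 1 lay on a transcript with 0 counts in the other libraries. In vector control 2, 373 counts lay on another such transcript. In OE, 159 and 207 counts lay on yet another, which had 0 and 66 in the controls. The part of transcript assignment in the fold change of *MTERF4* was not tested. *DHX30*, an RNA helicase of mitochondrial RNA granules, had 2205 and 1998 counts against 1822 and 2021 (log2 fold change -0.34, SE 0.0980). In the annotation, exons of *MTERF2*, *MTERF4*, *LRPPRC*, *SLIRP* and *MTPAP* overlap those of other genes, so their counts are uncertain, and those of *PDE12*, *PNPT1*, *DHX30*, *POLRMT* and *TFAM* do not.

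The factors that start transcription and hold or tail the mRNAs had smaller differences. *TFAM*, which packages mitochondrial DNA and starts its transcription, had 1757 and 1622 counts in the controls and 2110 and 2763 in OE (log2 fold change 0.31, SE 0.113, adjusted p = 0.247, edgeR). *POLRMT*, the mitochondrial RNA polymerase, had 761 and 801 counts against 537 and 1043, so that the OE libraries lay on either side of the control. *LRPPRC* had 2031 and 2475 counts against 2334 and 3155 (log2 fold change 0.07, SE 0.149), and its partner *SLIRP* had 35 and 48 against 35 and 53. *MTPAP*, the mitochondrial poly(A) polymerase, had 893 and 856 counts against 829 and 964 (log2 fold change -0.17, SE 0.0916, adjusted p = 0.379). Of these 5 genes, 0 had a raw p below 0.05 in edgeR, where 20.8% of all tested genes passed. *TFAM* had a raw p of 0.053 in edgeR, 0.042 in limma-voom and 0.012 in DESeq2. In CPM, *TFAM* was higher and *MTPAP* lower in both OE libraries than in either control, as were 27.8% and 27.6% of all tested genes. *POLRMT*, *LRPPRC* and *SLIRP* overlapped between groups.

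**Figure D5:**
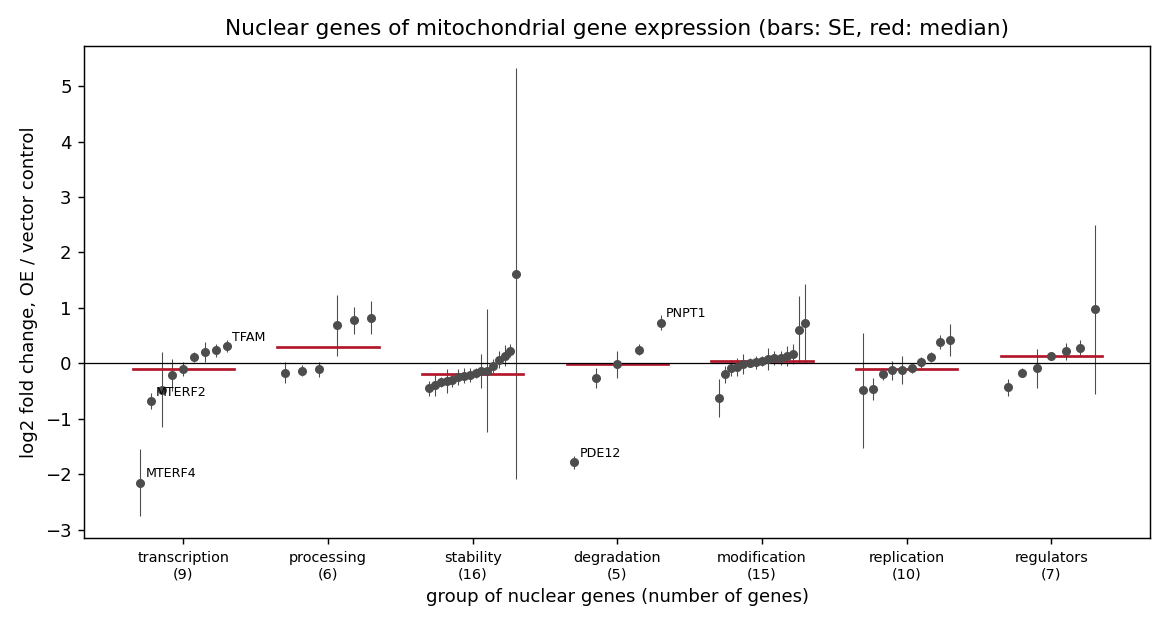
Log2 fold change (OE over vector control, edgeR) of 68 nuclear genes of mitochondrial gene expression in 7 groups, with the SE as a bar and the group median as a red line. PDE12 at -1.78 and PNPT1 at 0.74 stand at the ends of the degradation group, and the group medians lie between -0.19 and 0.29.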

How the data were processed

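RNA-seq libraries of SK-N-SH cells were analysed, 2 of vector control and 2 of *RP5-998N21.4* OE cells, grouped by the sample labels. After trimming with Trimmomatic and alignment by Bowtie2 (hg19), the authors deposited unnormalized whole-number counts for each Ensembl transcript. The submitters' processing notes name Bowtie2 2.0.4, Picard 2.21.6, StringTie 2.1.6 and DESeq2, with no roles. The counting tool, annotation release, mitochondrial reference sequence and use of strand are not given in the sources used here. The most frequent non-zero value in the table was 4 (5.79% of non-zero values) and not 1 (3.39%), so 1 count need not be 1 read. The reads carry no molecular identifiers, and intervals cover counting error only.

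Counts were summed per gene. Genes kept by filterByExpr (20528) were normalized by TMM (factors 0.976 to 1.02) and tested with edgeR 4.0.16 in R 4.3.3 (quasi-likelihood test, legacy setting, no covariates, Benjamini-Hochberg adjustment). This test reports no SE. The SE given is the absolute log2 fold change divided by the square root of the F statistic. DESeq2 1.42.0, limma-voom (limma 3.58.1), other scalings, filters, a replicate block and leaving out each library were alternatives. Scripts were tested on simulated counts. Positions and sequences came from GENCODE 44 lifted to GRCh37 (mitochondrial sequence of 16569 bases), where all 37 members were found. Exact tests and intervals used scipy 1.17.1, sequences Biopython 1.88 and figures matplotlib 3.10.9.

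All members could be named. Values in every library are given for the rRNA and protein-coding genes and for tRNA genes with a mean of at least 10 counts, in the list of nuclear genes for *LRPPRC*, *SLIRP*, *POLRMT*, *TFAM*, *MTPAP* and *PNPT1* and the 5 with the smallest p. For a symbol with several gene rows, the row with the most counts was used. The members, lists and tests were chosen with earlier results of these data known.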

Additional observations from a re-analysis of the deposited data

How the results depend on the processing

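Of the 36 tested members, 30 had a log2 fold change of the same sign in all alternatives run. The number of members called was 7 with DESeq2 and 0 in the other alternatives that kept all 4 libraries. An adjusted p under 0.05 is included there, which 122 of 20528 tested genes had. The main rule called 0 of all tested genes, so an unchanged 0 says little. The number higher at an unadjusted p under 0.05 was 5 with DESeq2, 6 with library size from mitochondrial counts alone, 4 with upper-quartile factors and 1 with the replicate block, and 1 to 2 with each library left out (1 without OE replicate 1 and 1 without vector control replicate 1). The number lower was 14 to 19 with each library left out (14 without vector control replicate 2) and 15 to 23 otherwise. Of the 68 nuclear genes, 3 were called with DESeq2 and 1 at an adjusted p under 0.05, which 122 of 20528 tested genes had. Those higher numbered 7 with DESeq2, 5 with limma-voom and 5 with upper-quartile factors, and 1 to 5 with each library left out (1 without OE replicate 2, 5 without vector control replicate 1). Those lower numbered 8 with DESeq2 and 3 with the replicate block, and 3 to 6 with each library left out (3 without OE replicate 1 and 3 without OE replicate 2). The difference in the share of all members was -0.452 to -0.366 percentage points with each library left out, and that of the protein-coding members alone was -0.498. The cause of these shifts was not tested.

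Sign changed with library size from mitochondrial counts alone for *MT-TL1* (0.039), *MT-ND1* (0.10), *MT-TA* (0.15), *MT-ND3* (0.13) and *MT-CYB* (0.038), and with upper-quartile factors for *MT-TA* (0.033) and *MT-ND3* (0.0067). With each library left out, log2 fold changes ran from -0.043 to 0.097 for *MT-TF*, -0.19 to 0.11 for *MT-ND3*, -0.066 to 0.21 for *LRPPRC*, -0.35 to 0.10 for *SLIRP* and -0.64 to 0.11 for *POLRMT*. The replicate numbers were not taken as pairs, since deviations of same-numbered libraries had a correlation of -0.02 across genes. With no gene called by edgeR, the block could remove no call. *MT-TC*, *MT-TW* and *MT-ATP8* lost their unadjusted p under 0.05 with the block, which left 20 members lower. With 1 library left out, the lone library of its group was assumed to vary like those of the other group. Among the tested members, the tRNA genes under 100 counts in every library had the largest standard errors, up to 0.43. The part of depth in this was not tested.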
